A study of Mus musculus with 10 samples.

Results

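Fibroblast growth factor (FGF) signalling was examined in the cochlea of newborn mice through 47 genes: the FGF ligands and their intracellular relatives, the FGF receptors, coreceptors and membrane partners, and the genes known as inhibitors or transcriptional readouts of the pathway. They were all genes of the deposited count table, 47 of 54532, whose mouse symbol begins with Fgf and a digit or is Fgfr1 to Fgfr4, Fgfrl1, Spry1 to Spry4, Spred1 to Spred3, Dusp4 to Dusp6, Etv1, Etv4, Etv5, Kl, Klb, Flrt1 to Flrt3 or Il17rd. Of these, 40 had at least 10 counts in at least 5 libraries and were tested among 18061 genes. The libraries came from the cochlear soft tissue of female mice on postnatal day 1, with both ears of 1 animal in each library. The 5 control animals carried the floxed genotype Esrrgfl/fl, in which loxP sites flank part of the gene for estrogen-related receptor gamma. The 5 animals labelled as conditional knockout (cKO) were Esrrgfl/fl;Sox10-Cre, so both groups share the floxed allele and differ by the Cre transgene. That transgene places the recombinase under Sox10 sequences, which are used in otic epithelium, glia and melanocytes but not in most mesenchyme of the cochlea, and the control genotype names no Cre.

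FGF ligands are secreted proteins that bind receptor tyrosine kinases together with heparan sulphate, and the active receptor signals through adaptor proteins and the RAS and ERK kinases to ETS transcription factors. The same signal raises its own inhibitors, the Sprouty and SPRED proteins, the phosphatase DUSP6 and the membrane protein encoded by Il17rd, so these genes and the ETS genes Etv4 and Etv5 are widely used as readouts of the pathway. In the inner ear, Fgf3 and Fgf10 act in the formation of the otic vesicle and its ducts, Fgf10 binds mainly the epithelial splice form of FGFR2, Fgf9 and Fgf20 act on mesenchyme and on the prosensory epithelium, and Fgf8 from inner hair cells acts through FGFR3 on pillar cells. In the cochlear duct Fgf10 is known from the greater epithelial ridge, the epithelium beside the sensory cells.

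Library totals ran from 33.5 to 41.8 M counts (M, 1000000), with 24160 to 26064 genes counted at least once. Esrrg itself, the targeted gene, was higher in the cKO-labelled libraries, at 109, 96.2, 78.5, 70.6 and 94.2 counts per 1000000 (CPM) in cKO 1 to 5, where control 1 to 5 held 56.3, 47.9, 61.2, 64.8 and 62 CPM. The log2 fold change was 0.62 (standard error, SE, 0.118; edgeR adjusted p = 0.0292), the groups did not overlap, and the exact two-sided permutation p over 252 assignments was 0.00794, the smallest possible. The edgeR call was lost in 6 of 10 fits with a single library omitted (without control 1, 3 or 5 or cKO 1, 2 or 5, adjusted p from 0.0562 to 0.0995), with values from 0.54 to 0.69 over the 10 fits. Limma gave an adjusted p of 0.0511 on log2(FPKM + 1) and 0.0512 on log2(FPKM + 0.1). The count covers every exon and cannot show whether a floxed exon was lost, so the second group is named by its label only (cKO-labelled) and every direction below rests on that label. Of the tissue markers, Tecta, a tectorial membrane protein, was at 1304 CPM in controls, and of 15 tested hair cell genes 7 were lower and 8 higher, with 0 called by edgeR, DESeq2 or limma-voom and 1 at an unadjusted edgeR p under 0.05. Over all tested genes edgeR called 0.615%, and 9.43% had an unadjusted p under 0.05. The otolith matrix gene Oc90 was also at 1296 CPM, and the hair cell genes Slc26a5 and Ocm were at 0 in at least 1 library. On the first principal component over all tested genes control 2 lay far from the rest, at 66.1 where the other controls lay between -12.9 and -0.665, so the values it moved most are also given without it.

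At an edgeR adjusted p under 0.05 over all 18061 genes, which is what called means here, 1 of the 40 tested FGF pathway genes was called lower (Fgf10) and 0 were called higher. Over all tested genes 0.543% were called lower and 0.072% higher. At an unadjusted p under 0.05 there were 3 lower (Fgf10, Fgf9 and Dusp5) and 3 higher (Fgf13, Fgfr1 and Fgfrl1), where 5.62% of all tested genes were lower and 3.81% higher. Of the 40, 18 were lower and 22 higher whatever their p, with a median log2 fold change of 0.03 beside -0.0096 for all tested genes. Without control 2 there were 20 lower and 20 higher, with a median of -0.0046.

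**Figure D1:**
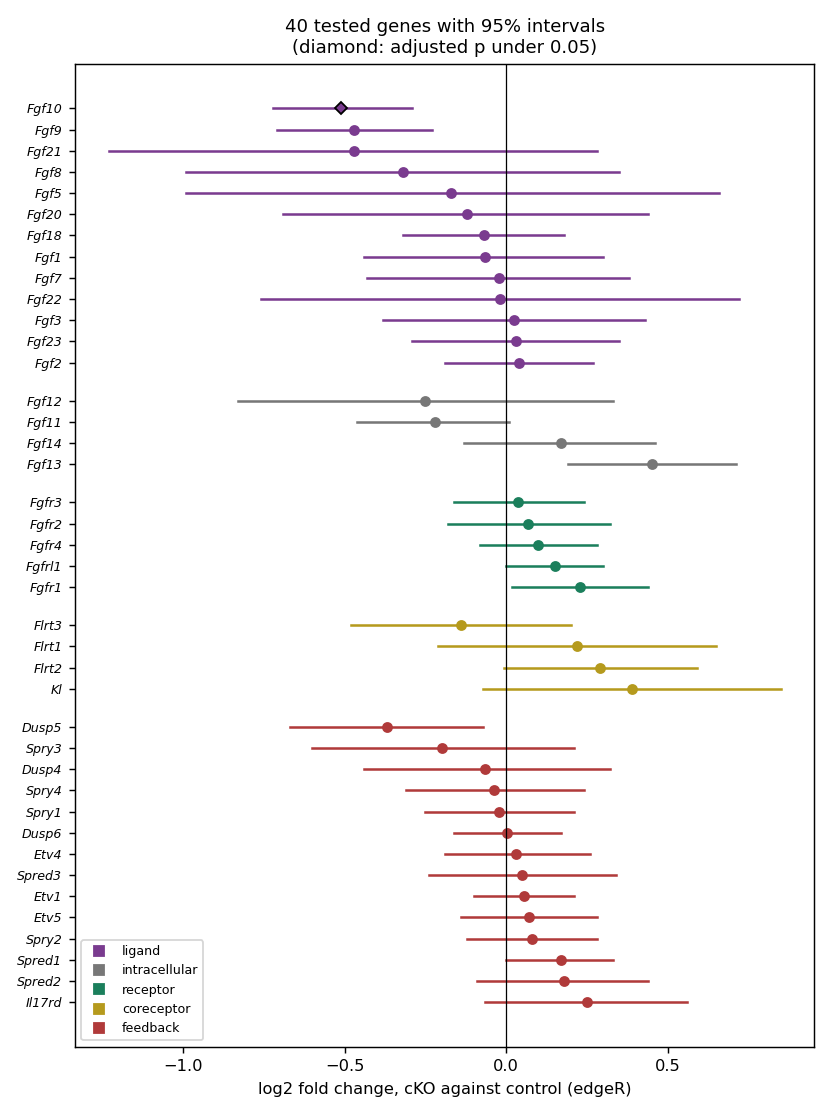
Log2 fold change of the cKO-labelled libraries against controls for the 40 tested genes (horizontal axis), with 95% intervals from the edgeR fit and colours for the role of each gene. Only Fgf10, drawn as a diamond at -0.51, had an adjusted p under 0.05, and the 5 receptor genes lay between 0.04 and 0.23.

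The proximal promoters of the ligands whose libraries did not overlap between genotypes, Fgf10 and Fgf9, are shown beside that of Dusp6, a readout gene whose groups overlapped. Each is the 250 bases before the RefSeq start on GRCm38.p6, written 5′ to 3′ on the plus strand, at chr13:118714449-118714698 for Fgf10, chr14:58072436-58072685 for Fgf9 and chr10:99262981-99263230 for Dusp6. The starts are those of RefSeq transcripts, and the GENCODE gene models of Fgf10 and Fgf9 begin further upstream (positions below). Capitals mark matches to the motifs searched.
Fgf10: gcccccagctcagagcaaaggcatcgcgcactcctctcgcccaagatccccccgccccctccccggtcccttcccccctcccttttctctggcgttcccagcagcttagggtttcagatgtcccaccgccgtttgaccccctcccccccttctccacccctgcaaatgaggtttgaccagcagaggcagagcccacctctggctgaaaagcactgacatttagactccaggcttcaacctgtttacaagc
Fgf9: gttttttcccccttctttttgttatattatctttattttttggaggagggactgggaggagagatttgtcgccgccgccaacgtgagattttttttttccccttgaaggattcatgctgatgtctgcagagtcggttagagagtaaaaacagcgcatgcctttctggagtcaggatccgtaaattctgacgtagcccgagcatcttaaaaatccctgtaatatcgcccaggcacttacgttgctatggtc
Dusp6: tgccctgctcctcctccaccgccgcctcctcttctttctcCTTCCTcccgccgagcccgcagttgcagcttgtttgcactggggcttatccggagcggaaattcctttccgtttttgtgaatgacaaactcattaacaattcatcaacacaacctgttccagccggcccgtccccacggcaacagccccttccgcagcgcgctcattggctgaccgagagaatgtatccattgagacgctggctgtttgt
The motifs were the estrogen-related receptor element TNAAGGTCA, its core AGGTCA (which lies within the first), the PEA3-type ETS site AGGAAG and the TATA box TATAAA, each on both strands. RefSeq windows were found for 35 of the 47 genes by symbol. The first motif was in the windows of 0 of these 35 genes and of 1.3% of all 27025 genes, and the core was in 3 (Fgf6, Fgf7 and Fgf12), beside 15.8% of all genes. AGGAAG was in 10 of the 35, among them Dusp6, Etv1, Fgfr2 and Dusp5, beside 32.3% of all genes, and TATAAA in 2 (Etv1 and Fgf21), beside 14.3%. The capitals in the Dusp6 window are AGGAAG on the minus strand, 205 to 210 bases before the start. G and C made up 61.2% of the Fgf10 window, 44.8% of the Fgf9 window and 56.4% of the Dusp6 window, where the median of all windows was 52.4%. A match is a run of letters and not a measured site, and its absence says only that the letters are not in this window.

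Levels of the genes were set in order by the deposited FPKM, fragments scaled to gene length and to library size, in the controls. Among the 18 ligands Fgf10 was the highest, at 16.2 ± 1.49 FPKM (SD, n = 5), followed by Fgf18 at 6.53 ± 0.533, Fgf9 at 3.74 ± 0.414 and Fgf1 at 3.44 ± 0.509 FPKM. The lowest control library for Fgf10 was at 14.1 FPKM and the highest for Fgf18 at 7.15 FPKM, so these neighbours did not overlap. The ranges of Fgf9 and Fgf1 did overlap. Fgf2, which like Fgf1 has no classic signal peptide, followed at 1.9 FPKM, and the endocrine ligand Fgf23, the hair cell ligand Fgf8 and Fgf3 had means from 1.12 to 1.42 FPKM. Fgf7, Fgf20, Fgf21, Fgf22 and Fgf5 had means from 0.095 to 0.883 FPKM.

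The receptors were higher than most ligands per length. Fgfr1 was first of all 47 genes at 44 ± 3.64 FPKM, and the decoy receptor Fgfrl1, which lacks the kinase domain, was second at 30.9 ± 2.22 FPKM. Fgfr4 and Fgfr2 followed at 17.5 ± 1.81 and 17.4 ± 3.11 FPKM, in ranges that overlapped each other and that of Fgf10, and Fgfr3 was at 8.01 ± 1.01 FPKM. Of the inhibitors and readouts, Spred1, Dusp6 and Etv5 lay close together at 24.2, 23.4 and 22.3 FPKM, and Spry3 was the lowest at 0.394 FPKM. In the cKO-labelled libraries, Fgf10 moved from rank 8 to rank 13 of the 47 genes and remained the highest ligand, at 11.5 FPKM, while Fgfr1, Fgfrl1 and Spred1 kept ranks 1 to 3.

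**Figure D2:**
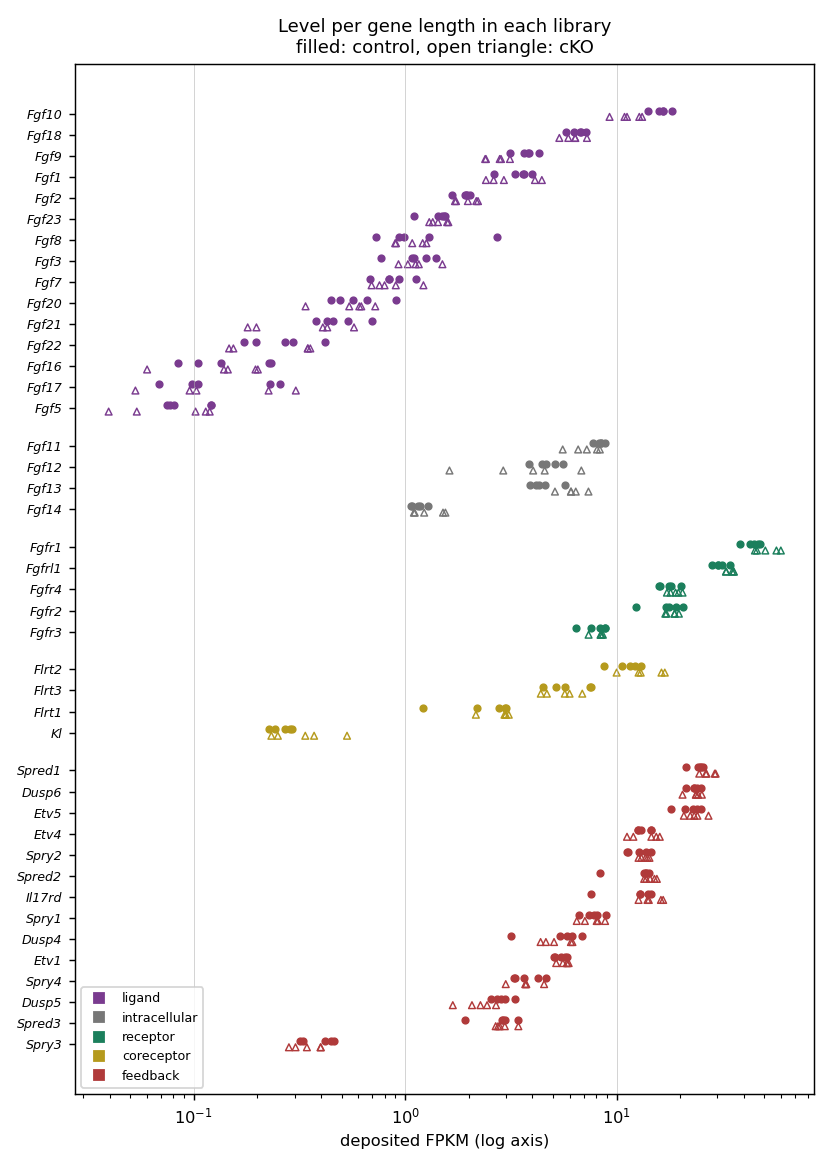
Deposited FPKM of each library on a log axis, by role, for the genes with a control mean above 0.05 FPKM and filled points for controls, open triangles for the cKO-labelled libraries. Fgf10 lies at 14.1 to 18.2 FPKM in controls and 9.26 to 13.2 FPKM in the cKO-labelled libraries, above every other ligand.

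The 7 genes that were not tested were low in both groups. Fgf17 and Fgf16, with at least 10 counts in 4 libraries each, were just outside the limit, at 3 to 18 and 4 to 16 counts per library. Just inside it was Fgf5, with 4 to 12 counts and 5 libraries at 10 or more. Fgf6 had 1 to 13 counts, Fgf15 had 1 to 7, the noncoding gene Fgf2os 0 to 7 and the coreceptor gene Klb 0 to 4. Fgf4 had 0 counts in all 10 libraries, and 3 counts, the limit that a count of 0 allows, would be 0.09 CPM in the library with the smallest scaled total, for counting error only. The bulk tissue does not tell fewer cells that use a gene from less RNA per cell, here or for any gene below.

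Among the ligands, Fgf10 (ENSMUSG00000021732; GRCm38 chromosome 13, 118669791 to 118792115, plus strand), whose lower level was known when the gene group was put together, is given as a description. It held 73.2, 84.7, 76.6, 76.7 and 65.9 CPM in control 1 to 5 and 50.2, 51.9, 59.3, 60.9 and 42.9 CPM in cKO 1 to 5. All 5 cKO-labelled libraries lay below all 5 controls, with cKO 5 lowest and cKO 3 and 4 nearest to the controls. The group means were 75.4 ± 6.78 and 53 ± 7.28 CPM (SD, n = 5 each), and the fitted level was 0.703 times that of controls, with a 95% interval from 0.605 to 0.817. The log2 fold change was -0.51 (SE 0.101; edgeR adjusted p = 0.0352), and -0.47 with an adjusted p of 0.0221 without control 2. Leaving out single libraries took the value between -0.56 and -0.44 and ended the call in 6 of 10 edgeR fits: without control 1, 3 or 4 and without cKO 1, 2 or 5, with adjusted p from 0.0779 to 0.118. With limma on log2(FPKM + 1) or log2(FPKM + 0.1) the adjusted p was 0.0551 and 0.0579, in fits that called 0.454% and 0.415% of all tested genes lower. The antisense gene Gm16263, whose exons overlap those of Fgf10 on the opposite strand, had 0 to 5 counts per library.

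Fgf9 (ENSMUSG00000021974; chromosome 14, 58070547 to 58112720, plus strand), a ligand of the mesenchymal splice forms of the receptors, was the other ligand without overlap between the groups. It held 17.7, 20.1, 17.2, 14.7 and 18.2 CPM in control 1 to 5 and 11.3, 11.1, 14.6, 13.2 and 13.1 CPM in cKO 1 to 5. The margin was narrow, since cKO 3 at 14.6 CPM was just under control 4 at 14.7 CPM. The log2 fold change was -0.47 (SE 0.111; 95% interval -0.71 to -0.23) with an edgeR adjusted p of 0.0973, so it was not called. At an adjusted p under 0.1 it would join Fgf10, where 0.775% of all tested genes were lower. Of all tested genes 1.66% were lower with no overlap in CPM, 1.13% higher and 2.79% in either direction, and 2 of the 40 (Fgf10 and Fgf9) were lower and 0 higher. DESeq2 called Fgf9, with an adjusted p of 0.00616, in a fit that called 1.4% of all tested genes lower, and with all 10 libraries its adjusted p ran from 0.00616 to 0.145 over the other ways of processing.

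The other members of the FGF7 subfamily, which share FGFR2 as a receptor with Fgf10, did not pass the test. Log2 fold changes were 0.03 for Fgf3, -0.02 for Fgf7 and -0.02 for Fgf22, with 95% intervals no wider than -0.76 to 0.72. For Fgf20, the relative of Fgf9 that acts in the prosensory epithelium, the value was -0.12 (SE 0.262), and for Fgf8 it was -0.32 (SE 0.313). The value for Fgf8 rested on control 2, at 3.69 CPM where the other controls were at 1 to 1.76 CPM, and without that library it was 0.10. The metabolic hormone gene Fgf21 had a value of -0.47 (SE 0.351) at 0.478 and 0.342 CPM, and it passed the count limit in 5 controls but 3 cKO-labelled libraries. The others lay between -0.17 for Fgf5 (SE 0.384) and 0.04 for Fgf2 (SE 0.105), with -0.07 for Fgf18, a ligand known from bone and mesenchyme, -0.065 for Fgf1 and 0.03 for Fgf23. Exons of Fgf22, Fgf20 and Fgf2 overlap those of Rnf126, Micu3 and Nudt6 on the opposite strand, and without known strand use their reads cannot be told apart. The same holds for Fgf14, Fgfr1, Fgfr3, Spry1, Spred3 and Dusp5. Of the 13 ligands tested 1 was called lower, the Fgf10 described above, where 0.543% of all tested genes were called lower. By sign 10 ligands were lower and 3 higher, where 9452 of all tested genes were lower and 8609 higher. The median of the ligands was -0.07, which was -0.15 without control 2. Leaving out that library also gave -0.15 for Fgf1, -0.15 for Fgf22, -0.20 for Fgf20, 0.072 for Fgf7 and 0.063 for Fgf3. With limma-voom 8 were lower and 5 higher, since Fgf7 and Fgf8 turned positive.

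The intracellular FGF homologous factors are not secreted and are known as partners of voltage-gated sodium channels in neurons. Of the 4, Fgf13 had the largest difference, with 29.7, 24.6, 24.6, 20.6 and 26 CPM in cKO 1 to 5 beside 15.7, 17.4, 18.6, 16.7 and 23.3 CPM in control 1 to 5. Control 5 lay above cKO 4, so the groups overlapped. Its log2 fold change was 0.45 (SE 0.123; 95% interval 0.19 to 0.71) with an edgeR adjusted p of 0.176, and DESeq2 gave 0.0339, where it called 0.299% of all tested genes higher. Values for the others were -0.22 (SE 0.109) for Fgf11, 0.17 (SE 0.137) for Fgf14 and -0.25 (SE 0.27) for Fgf12. The last ran from -0.53 without cKO 1 to -0.048 without cKO 4. Fgf12 spread widely in the cKO-labelled libraries, from 10.1 CPM in cKO 4 to 42.5 CPM in cKO 1. The summed level of the 23 spiral ganglion neuron markers was also lowest in cKO 4, at 1329 CPM, and highest in cKO 1, at 2123 CPM, within that group, beside 2022 to 2132 CPM in controls. Of these markers 18 were lower and 5 higher, and 5 were called lower, where 0.543% of all tested genes were called lower. Fgf13 differed in the other direction. The part of these markers in the values of the 4 genes was not tested.

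**Figure D3:**
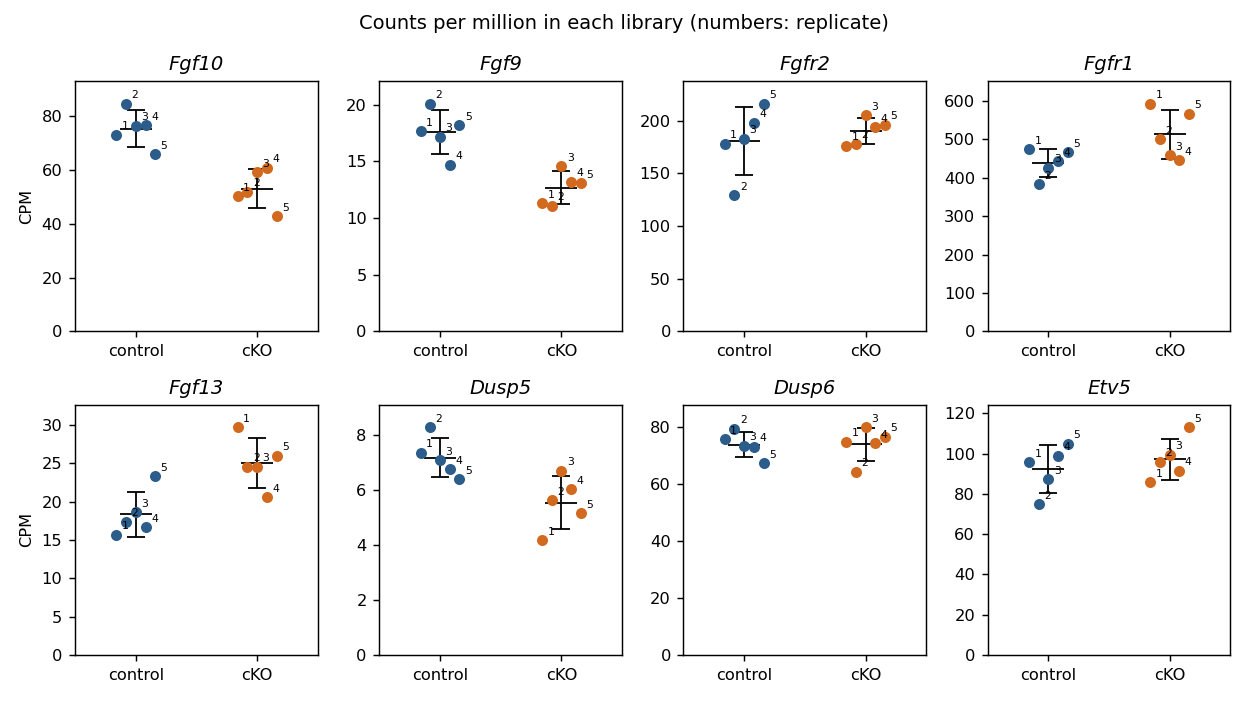
CPM of each library for 8 genes, with points numbered by replicate and bars for the mean and SD of 5 libraries per group. The cKO-labelled libraries lie below all controls for Fgf10 and Fgf9 and overlap the controls for Fgfr2, Fgfr1, Fgf13, Dusp5, Dusp6 and Etv5.

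Whether the receptor followed its ligand was examined next. Fgfr2 (ENSMUSG00000030849; chromosome 7, 130162451 to 133123350, minus strand) encodes the main receptor of Fgf10. It held 178, 129, 183, 198 and 216 CPM in control 1 to 5 and 176, 178, 205, 194 and 196 CPM in cKO 1 to 5. All cKO-labelled libraries fell inside the range of the controls, which control 2 widened downward. The log2 fold change was 0.07 (SE 0.115; edgeR adjusted p = 0.869), and it was -0.04 without control 2. Its 95% interval with all libraries, from -0.18 to 0.32, lay above that of Fgf10 (-0.72 to -0.29). The gene model includes exons that overlap those of Ctbp2 on the same strand, Ctbp2 had a log2 fold change of 0.07, and the counts per gene do not separate the epithelial from the mesenchymal splice form.

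The log2 ratio of Fgf10 to Fgfr2 in CPM was -1.28, -0.60, -1.26, -1.37 and -1.71 in control 1 to 5 and -1.81, -1.77, -1.79, -1.67 and -2.19 in cKO 1 to 5. The groups overlapped through control 5 and cKO 4 only. The mean was -1.25 ± 0.402 in controls and -1.85 ± 0.198 in the cKO-labelled libraries (SD, n = 5 each), a difference of -0.60, which was -0.44 without control 2. It carries no test, since Fgf10 was singled out with its difference known.

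The other receptors had higher means, with 0 of 5 receptor genes called by edgeR, DESeq2 or limma-voom and 2 higher at an unadjusted edgeR p under 0.05. Over all tested genes 3.81% were higher at that unadjusted p and 0.072% were called higher by edgeR. The count of 2 receptor genes fell to 0 without control 3, without control 4 or without cKO 5. Fgfr1, the most abundant receptor, held 474, 383, 426, 443 and 466 CPM in control 1 to 5 and 593, 500, 459, 446 and 567 CPM in cKO 1 to 5. Only cKO 1, 2 and 5 exceeded the highest control. On the log2 scale the difference was 0.23 (SE 0.0978; 95% interval 0.02 to 0.44; edgeR adjusted p = 0.496). The decoy receptor gene Fgfrl1 held 96.1, 88.5, 85.1, 84.9 and 79.7 CPM in control 1 to 5 and 91.9, 92.1, 100, 98 and 100 CPM in cKO 1 to 5. Its log2 fold change was 0.15 (SE 0.0704; 95% interval 2e-05 to 0.30; edgeR adjusted p = 0.529), with control 1 inside the range of the other group. Fgfr3, known from pillar and Deiters' cells, was at 0.04 (SE 0.0936) on the log2 scale and Fgfr4 at 0.10 (SE 0.0836). The 5 of 5 higher receptors became 3 of 5 without control 2, where Fgfr2 and Fgfr3 were both at -0.04, and Fgfr3 was at -0.009 with limma-voom. Fgfr4 was at 0.063 without control 2.

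Of the coreceptors and membrane partners, Kl, the klotho gene that serves the endocrine ligand Fgf23, had a log2 fold change of 0.39 (SE 0.214) at 2.48 ± 0.257 CPM in controls and 3.23 ± 1.12 CPM in the cKO-labelled libraries (SD, n = 5 each). Its highest library was cKO 3, at 4.99 CPM, and without that library the value was 0.18. The FLRT genes encode leucine-rich membrane proteins that bind FGF receptors and axon guidance receptors, and their log2 fold changes were 0.22 for Flrt1, 0.29 for Flrt2 and -0.14 for Flrt3. The smallest edgeR adjusted p of these was 0.536, and without control 2 the values were 0.045 for Flrt1, 0.21 for Flrt2 and -0.24 for Flrt3.

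The readouts of the pathway were compared last. Of the 14 inhibitor and ETS genes, all of them tested, 5 were lower and 9 higher with 0 called, 1 was lower at an unadjusted p under 0.05 (Dusp5), and the median log2 fold change was 0.04. Over all tested genes 9.43% had an unadjusted p under 0.05 in either direction and 0.615% were called. None of the processing alternatives or fits with 1 library left out called any of the 14. The median was 0.01 without control 2 and -0.01 without cKO 5.

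Dusp6, the ERK phosphatase that is induced by FGF signals, was at 75.8, 79.4, 73.5, 73.1 and 67.3 CPM in control 1 to 5 and 74.9, 64.4, 79.9, 74.3 and 76.7 CPM in cKO 1 to 5. The groups overlapped almost fully, with a log2 fold change of 0.004 (SE 0.0766; edgeR adjusted p = 0.99) and a 95% interval from -0.16 to 0.17. For the whole tissue this interval lay above that of Fgf10 (-0.72 to -0.29). The intervals of Dusp5 (-0.67 to -0.07), Spry3 (-0.60 to 0.21), Dusp4 (-0.44 to 0.32) and Spry4 (-0.31 to 0.24) overlapped that of Fgf10. How far a readout would move with Fgf10 was not tested. Bulk counts cannot show a change limited to the cells that respond to Fgf10.

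Etv5, an ETS factor of the PEA3 group, held 95.6, 74.8, 87.3, 99 and 105 CPM in control 1 to 5 and 85.8, 95.9, 99.5, 91.5 and 113 CPM in cKO 1 to 5. Its relative Etv4 held 41, 45.6, 39.4, 45.5 and 39.6 CPM in control 1 to 5 and 45.4, 47.8, 34.9, 37.4 and 50.2 CPM in cKO 1 to 5. For Etv4, cKO 5, 2 and 1 were the highest of their group, and cKO 3 and 4 were below every control. Whether any readout follows Fgf10 from library to library was not tested. Log2 fold changes were 0.07 for Etv5, 0.03 for Etv4 and 0.05 for Etv1, with 95% intervals between -0.19 and 0.28. Without control 2, which had the least Etv5 of all libraries, they were 0.00057 for Etv5, 0.057 for Etv4 and 0.026 for Etv1.

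The Sprouty genes encode inhibitors that act between the receptor and ERK. Spry1 held 26.1, 23.8, 19.5, 22.8 and 21.9 CPM in control 1 to 5 and 23.5, 23.8, 20.7, 18.9 and 25.8 CPM in cKO 1 to 5. Spry2 held 30.7, 29.1, 27, 23.8 and 23.7 CPM in control 1 to 5 and 29.3, 27.5, 28.7, 26.6 and 30 CPM in cKO 1 to 5. Spry4 held 21.4, 15.2, 15.2, 16.8 and 19.8 CPM in control 1 to 5 and 17.1, 13.7, 20.9, 17.2 and 17.2 CPM in cKO 1 to 5. In each of the 3 the groups overlapped, and log2 fold changes were -0.02, 0.08 and -0.04 (-0.01, 0.11 and -0.09 without control 2), with 95% intervals that together ran from -0.31 to 0.28. Spry3, the least abundant, had a log2 fold change of -0.20 (SE 0.188).

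Dusp5, a nuclear ERK phosphatase, was the readout with the largest difference, and its exons overlap those of AC137853.2 on the opposite strand, which was not analysed here. It held 7.36, 8.28, 7.09, 6.77 and 6.39 CPM in control 1 to 5 and 4.17, 5.64, 6.71, 6.04 and 5.15 CPM in cKO 1 to 5. Of the cKO-labelled libraries, cKO 3 and 4 were nearest to the controls, and cKO 3 lay above control 5. The log2 fold change was -0.37 (SE 0.139; 95% interval -0.67 to -0.07) with an edgeR adjusted p of 0.411. Dusp4, its paralogue, had a log2 fold change of -0.06 (SE 0.177), which was -0.21 without control 2.

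The SPRED genes and Il17rd, whose products restrain RAS and ERK at the membrane, had log2 fold changes of 0.17 for Spred1, 0.18 for Spred2, 0.05 for Spred3 and 0.25 for Il17rd, with edgeR adjusted p of at least 0.529. These values rested in part on control 2, where Il17rd was at 83.6 CPM beside 143 to 160 CPM in the other controls and Spred2 at 39 CPM beside 62.9 to 66.6 CPM. Without it they were 0.11 for Il17rd, 0.055 for Spred2 and -0.06 for Spred3, and for Spred1 0.12.

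**Figure D4:**
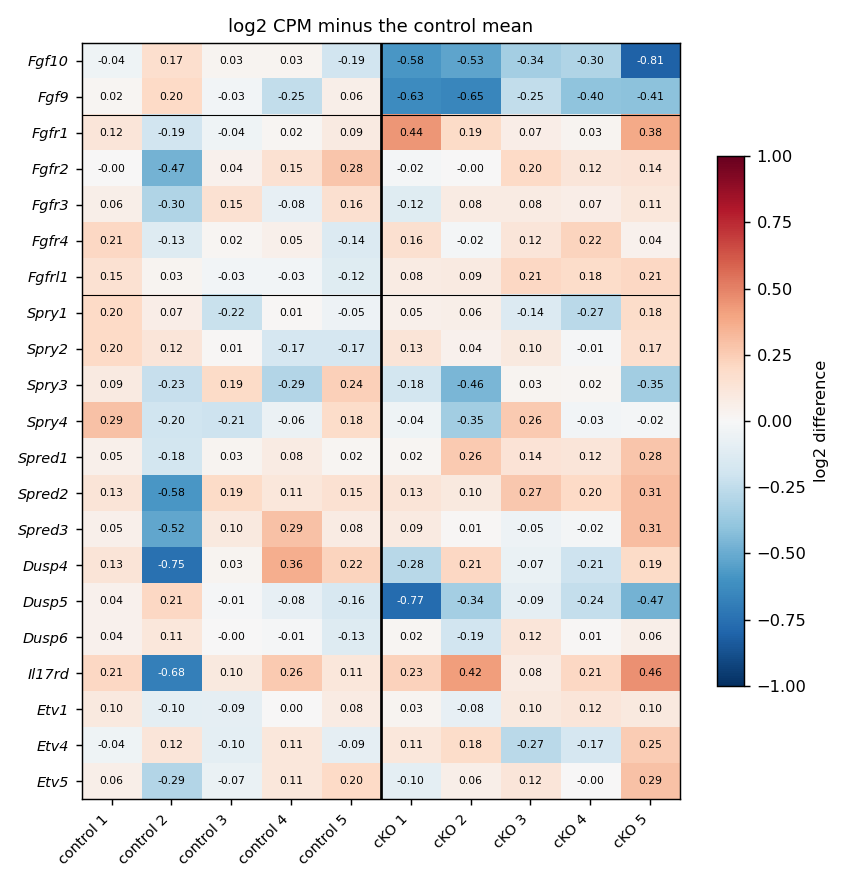
Log2 CPM of each library minus the mean of the 5 controls for 2 ligands, 5 receptors and 14 inhibitor and ETS genes (red higher, blue lower). Fgf10 is negative in all 5 cKO-labelled libraries, from -0.81 to -0.30, the readout genes are of mixed sign there, and control 2 is at -0.75 for Dusp4 and -0.68 for Il17rd.

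The rest of the pathway was read from 3 lists. Of 25 adaptors and kinases from the receptor to ERK, 9 were lower and 16 higher with 0 called by edgeR or DESeq2 and 1 by limma-voom, 3 had an unadjusted edgeR p under 0.05, and the median log2 fold change was 0.04. The smallest p belonged to Shc1, an adaptor, with a log2 fold change of 0.17 (SE 0.0708; edgeR adjusted p = 0.479). Of 31 genes that make, edit or carry heparan sulphate, 5 were lower and 26 higher, with 0 called by edgeR or limma-voom and 2 by DESeq2, 5 were higher at an unadjusted edgeR p under 0.05, and the median was 0.14. Their summed level was 2913 to 3410 CPM in controls and 3455 to 3655 CPM in the cKO-labelled libraries, with control 2 the lowest. Without control 2, 23 were higher and the median was 0.095, and with all libraries it was 0.071 in limma-voom. The glypican gene Gpc4 had the smallest p, with a log2 fold change of 0.31 (SE 0.0847; edgeR adjusted p = 0.175). Over all tested genes DESeq2 called 0.299% higher and limma-voom called 1.95% in either direction. At an unadjusted edgeR p under 0.05, 3.81% were higher and 9.43% in either direction. Of 22 growth factor response genes, 12 were lower and 10 higher, with a median of -0.06.

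Levels of other cell types were set beside Fgf10 by library. The summed level of 13 genes of the greater epithelial ridge and tectorial membrane was 5200 to 6031 CPM in controls and 5473 to 5892 CPM in the cKO-labelled libraries, with 6 lower and 7 higher, 2 of them lower at an unadjusted edgeR p under 0.05 and 0 called by edgeR, DESeq2 or limma-voom. Clu (means of 1773 and 1866 CPM) and Tecta (1304 and 1488 CPM) dominate this sum. The 2 lower genes were Tectb, at 427 and 319 CPM (log2 fold change -0.42), and Stmn2 (-0.38), which is also in the spiral ganglion list. The 17 genes of supporting cells, Fgfr3 among them, summed to 1177 to 1280 and 1216 to 1331 CPM, with Gjb2 alone at means of 488 and 565 CPM. Of these 17, 12 were lower and 5 higher, with a median log2 fold change of -0.12, 3 lower and 1 higher at an unadjusted edgeR p under 0.05, and 1 called lower (Fabp3). The 15 genes of Schwann cells and satellite glia summed to 1601 to 1803 CPM in controls and 1110 to 1664 CPM in the cKO-labelled libraries, with 13 lower, 7 of them at an unadjusted edgeR p under 0.05, and 0 called by edgeR but 3 each by DESeq2 and limma-voom. Over all tested genes edgeR called 0.543% lower, DESeq2 1.4% and limma-voom 1.68%. At an unadjusted edgeR p under 0.05, 5.62% were lower and 3.81% higher. The spiral ganglion sum of cKO 1 was inside the control range while its Fgf10 was at 50.2 CPM, and cKO 4, with the lowest such sum, had the most Fgf10 of its group. Of the 23 spiral ganglion markers 18 were lower and 5 higher, with 5 called lower and a median log2 fold change of -0.32. All 20 proliferation genes were lower, 2 of them at an unadjusted edgeR p under 0.05, with 0 called by edgeR, DESeq2 or limma-voom. Their sum was 812, 879, 1080, 1156 and 689 CPM in cKO 1 to 5, in the same order as Fgf10, and 865, 1177, 1188, 1083 and 976 CPM in control 1 to 5. Control 1, at 865 CPM, had 73.2 CPM of Fgf10, and cKO 4, at 1156 CPM, had 60.9 CPM. The part of neurons, glia, other cell types or proliferation in the Fgf10 value was not tested.

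**Figure D5:**
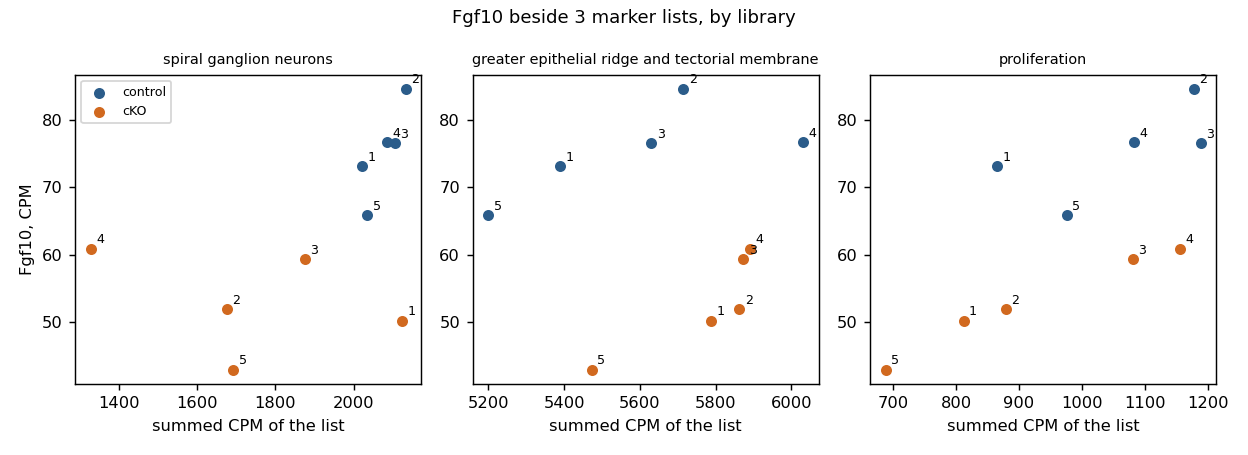
Fgf10 in CPM (vertical axis) against the summed CPM of 3 marker lists in each library, numbered by replicate. For each list the cKO-labelled libraries lie below the controls in Fgf10, between 42.9 and 60.9 CPM. For the spiral ganglion and proliferation lists they include sums inside the control range, and for the greater epithelial ridge list every sum is inside it.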

How the data were processed

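Polyadenylated RNA of 10 libraries was read as paired reads of 150 bp, per the labels' protocols. The authors deposited 2 tables by Ensembl gene ID, 1 of whole-number counts and 1 of FPKM. The submitters' processing notes name STAR 2.5, HTSeq 0.61, DESeq2 2 and the build mm10, without saying which step used which; which annotation was counted, and whether by strand, is not given in the sources used here. Gene lengths implied by the 2 deposited tables differed by at most 0.1% from the union of exons in GENCODE M21 (GRCm38) for 95.3% of 13923 genes and for 31 of 34 members compared (not Spry4, Fgf1 and Flrt1). Symbols and positions were taken from it, and 54495 of 54532 IDs matched.

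The deposited counts were tested with edgeR 4.0.16 (quasi-likelihood, robust, TMM factors, genotype as the only term) after keeping genes with at least 10 counts in at least 5 libraries. Adjusted p-values are Benjamini-Hochberg values over all tested genes. SE and intervals were derived from the F statistic. CPM are counts per 1000000 after TMM scaling, and per-library log2 values and ratios used a prior count of 2. The deposited FPKM values were used for levels and, on a log2 scale, with limma 3.58.1, where a fold change is on the log2(value + pseudocount) scale. Fits were tested on simulated data. R 4.3.3 and DESeq2 1.42.0 were used for alternatives.

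Members, lists and tests were chosen with earlier results of these data known. Named were Esrrg, every member, and in each pathway list the calls and the smallest p, except in the growth factor response list, where that result is not reported here. Per-library values were given for Fgf10, Fgfr2, members at an unadjusted p under 0.05 and 6 readouts; other values were added after they were seen. Marker lists of 15 cell types are described by calls and directions from the same fits and, for some of them, by summed levels, with no test of a list. The labels call each library 1 animal, so the p-values set the difference between groups against the spread between animals. Whether the animals are independent of each other was not tested.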

Additional observations from a re-analysis of the deposited data

Results flagged for a closer look

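Dixon's test at the 95% level was used to look for a single outlying library within each group of 5, over 43 measures and so 86 groups. By chance about 1 in 20 groups pass it, here 4.3, and 10 did, 6 of them through control 2. Measures that share a library are not independent. Control 2 was high for the first principal component (66.1, others -12.9 to -0.665) and Fgf8 (3.69 CPM, others 1 to 1.76). It was low for Spred1 (146 CPM, others 167 to 175), Fgf2 (11.4, others 13.1 to 13.8), Il17rd (83.6, others 143 to 160) and Spred2 (39, others 62.9 to 66.6). Fgf23 was low in control 1, at 2.01 CPM where the other controls were at 2.61 to 2.83 CPM. In cKO 1, Flrt1 was low at 12.7 CPM (others 17.4 to 18.2) and Fgfr3 was low at 53 CPM (others 60.2 to 62.1). The log2 ratio of Fgf10 to Fgfr2 was low in cKO 5, at -2.19 where the others were at -1.81 to -1.67. No explanation was tested for any of these.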

How the results depend on the processing

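With 1 library left out, calls over all genes ran from 51 to 194 (44 to 177 lower, 7 to 17 higher), calls among the FGF pathway genes and their lower calls from 0 to 1, calls in the adaptor list from 0 to 1, the log2 fold change of Fgf10 from -0.56 to -0.44, of Fgfr2 from -0.035 to 0.14 and of Esrrg from 0.54 to 0.69 (6 of 10 calls lost), and the difference in the Fgf10 to Fgfr2 ratio from -0.72 to -0.44. An adjusted p threshold of 0.1 gave 2 FGF pathway genes, both lower (Fgf10 and Fgf9), and 24 higher calls over all genes. DESeq2 gave 307 calls (253 lower, 54 higher), 3 of them FGF pathway genes (2 lower, 1 higher), and 2 in the heparan sulphate list. Limma-voom gave 352 (303 lower, 49 higher), with 1 in the adaptor list, and values of opposite sign for Etv4 (-0.0057), Spry4 (0.017), Fgf8 (0.087), Fgf7 (0.068), Spred3 (-0.08) and Fgfr3 (-0.009). On log2(FPKM + 1) and log2(FPKM + 0.1) the log2 fold changes were -0.47 and -0.50 for Fgf10 and 0.57 and 0.61 for Esrrg, no longer called, so 0 FGF pathway genes were called (0 lower). Leaving out 1 library also turned the sign of genes near 0, over ranges of -0.051 to 0.066 (Fgf23), -0.029 to 0.10 (Etv4), -0.026 to 0.049 (Dusp6), -0.15 to 0.20 (Fgf22), -0.11 to 0.041 (Spry4), -0.48 to 0.10 (Fgf8), -0.17 to 0.072 (Fgf7), -0.31 to 0.025 (Fgf5), -0.09 to 0.12 (Fgf3), -0.21 to 0.031 (Dusp4), -0.23 to 0.057 (Fgf20), -0.19 to 0.03 (Fgf1), -0.075 to 0.037 (Spry1), -0.0098 to 0.082 (Fgf2), -0.063 to 0.13 (Spred3) and -0.035 to 0.08 (Fgfr3). For these changes the cause was not tested.

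With the replicate number as a block, Esrrg had a log2 fold change of 0.61 and an adjusted p of 0.0623, Fgf10 -0.51 and 0.0156, and 97 genes were called. Same-numbered libraries had correlations of deviations from 0.0232 to 0.18, over 0.1 in 2 of 5 pairs, beside -0.283 to 0.17 for different numbers. Of 10 libraries, 6 correlated best with their own number. Whether the numbers mark pairs was not tested, and the main fit did not use them. With the block, 9 of 20 proliferation genes and 7 of 8 tested erythroid genes were lower at an unadjusted edgeR p under 0.05, beside 2 and 2 without it. Over all tested genes such lower values numbered 1232 with the block and 1015 without it. The count of feedback genes called was 0 in every fit. Genes with few counts have wide intervals, as for Fgf5 (-0.99 to 0.66), and Fgf4 with 0 counts could not be compared.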

Other observations

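Summed levels of other marker lists were higher for some cell types and lower for others, and the sums carry no test. For the counts below, edgeR called 0.543% of all tested genes lower and DESeq2 1.4%. At an unadjusted edgeR p under 0.05, 3.81% of all tested genes were higher and 9.43% in either direction. The 12 macrophage genes summed to 342 to 397 CPM in controls and 398 to 473 CPM in the cKO-labelled libraries, without overlap, with 5 lower and 7 higher, 2 of them higher at an unadjusted edgeR p under 0.05 and 0 called by edgeR, DESeq2 or limma-voom. For 10 genes of stria vascularis marginal cells the sums were 1924 to 2453 and 2420 to 2566 CPM, with 9 higher and 1 lower, which was called. For 16 genes of periotic mesenchyme and fibrocytes they were 11310 to 13236 and 12564 to 14274 CPM, with 11 higher, 0 called by edgeR or limma-voom, 1 by DESeq2 and 3 at an unadjusted edgeR p under 0.05. The 10 erythroid genes summed to 814 to 3018 and 505 to 1346 CPM, with all 8 tested members lower, 1 of them called, and control 2 the highest. Of 12 tested brain genes 7 were lower, 4 of them called by edgeR, while their sum was 472 to 649 CPM in controls and 573 to 739 CPM in the other group, so the calls and the sum went in different directions. Of 11 tested cartilage and bone genes 8 were lower and 3 higher, with 1 called lower by edgeR. For 9 tested vestibular genes 6 were lower and 3 higher, with 0 called by edgeR. For 11 outer sulcus and Reissner membrane genes these were 4 and 7, with 2 in each direction at an unadjusted edgeR p under 0.05 and 0 called. For 12 melanocyte and intermediate cell genes they were 3 and 9, and for 7 tested skeletal muscle genes 5 and 2, with 0 called by edgeR. The part of these levels in the FGF pathway values was not tested.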
